A study of Mus musculus with 6 samples.

Results

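The catalytic subunits and ring activators of the proteasome were followed in whole tumours grown from B16F10 cells, a mouse melanoma line. The 9 genes were chosen by name: the inducible catalytic subunits Psmb8, Psmb9 and Psmb10, their constitutive partners Psmb5, Psmb6 and Psmb7, and the activator subunits Psme1, Psme2 and Psme3. All 9 were among the 20938 genes of the deposited table, and all 9 passed the filter on low values (1 FPKM or more on average across the 6 libraries), as did 11241 genes in all. FPKM, a count of fragments scaled to the depth of the library, is also divided by transcript length, so that levels of different genes can be set side by side.

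There were 3 tumours labelled YKL-40 overexpressing and 3 labelled control. In both groups the cells had been placed under the skin of the hind leg of male C57BL/6 mice aged 6 weeks, the genotype is given as WT, and the tumours were collected on day 19. YKL-40 is a secreted chitinase-like protein, and the series asks what it does to melanoma growth. The labels do not state the vector of either cell population, the species of the YKL-40 sequence, whether the cells were a clone, or whether each library came from its own mouse, so p-values measure the spread between these libraries, which may be technical. The mouse gene of YKL-40, Chil1, was listed at 0 FPKM in all 3 YKL-40 libraries and at 0.0644, 0 and 0.0242 FPKM in the controls. It therefore does not show overexpression of a mouse sequence, and a sequence of another species might not map to it. All directions rest on the labels alone.

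Melanocyte genes marked every library, with Pmel between 4049 and 5461 FPKM in the YKL-40 libraries and between 3656 and 3890 FPKM in the controls. Summed FPKM ran from 468605 to 490955 in the YKL-40 libraries and from 469464 to 479586 in the controls. Read totals are unknown. From the commonest ratio among 744 genes of low value, depth relative to control 1 was estimated at 0.946 to 1.20 in the YKL-40 libraries and 1 to 1.34 in the controls, and no counting interval can be given.

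The proteasome is the barrel-shaped protease that degrades most marked proteins of the cell and supplies peptides for MHC class I. Its core carries catalytic sites on the β1, β2 and β5 subunits, which in most tissues are the products of Psmb6, Psmb7 and Psmb5. Interferon-γ induces Psmb9, Psmb10 and Psmb8, whose products take the same places in newly assembled cores and form the immunoproteasome. Leukocytes carry the inducible subunits without such a stimulus. Psme1 and Psme2 encode PA28α and PA28β, which form an interferon-inducible cap on the core, and Psme3 encodes PA28γ, a mainly nuclear relative.

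The inducible catalytic subunits were the members that differed most between the groups. Psmb8, which encodes the chymotrypsin-like β5i subunit (LMP7), had 56.1, 49.1 and 137 FPKM in the YKL-40 libraries, against 4.59, 6.14 and 5.18 FPKM in the controls. Psmb9, which encodes β1i (LMP2), had 38.7, 28.5 and 72.4 FPKM in the YKL-40 libraries, against 4.24, 5.05 and 2.98 FPKM in the controls. For both genes the groups lay far apart, and YKL-40 library 3 was the highest of all. Psmb10, which encodes β2i (MECL-1), had 71.5, 48.5 and 122 FPKM in the YKL-40 libraries, against 20.1, 22.9 and 23.7 FPKM in the controls. Its groups did not overlap either, and it started from the highest control level of the inducible subunits.

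On the log2(FPKM + 1) scale, on which low values understate a change, Psmb8 rose by 3.55 (SE 0.36) and Psmb9 by 3.14 (SE 0.32), each with an adjusted p of 0.0303 (limma, Benjamini-Hochberg over all tested genes). Psmb10 had a change of 1.72 (SE 0.29) that did not pass (adjusted p = 0.0712). Of the 9 members 2 were called higher, where 0.365% of all tested genes were called higher, and 0 were called lower, where 0.0712% were. At an unadjusted p under 0.05 in limma, 6 members were higher (8.71% of all tested genes) and 0 lower (9.24%). All YKL-40 values lay above all controls for 6 members, as for 10.3% of all tested genes, and below them for 1, as for 14.2%. The calls of Psmb8 and Psmb9 were lost in fits without control 1, without control 2 or without YKL-40 library 1 (adjusted p from 0.0931 to 0.107), while 5 members were called without YKL-40 library 2, Psmb10 among them (adjusted p = 0.0159). Both calls were also lost without the filter on low values (adjusted p = 0.106) and with the skeletal muscle marker level as a covariate, where Psmb8 changed by 2.77 and Psmb9 by 2.10 (adjusted p = 0.842 for each). In the covariate fit 0 of 11241 genes were called. The muscle marker sums themselves lay apart between the groups, so this fit cannot separate muscle level from group.

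**Figure D1:**
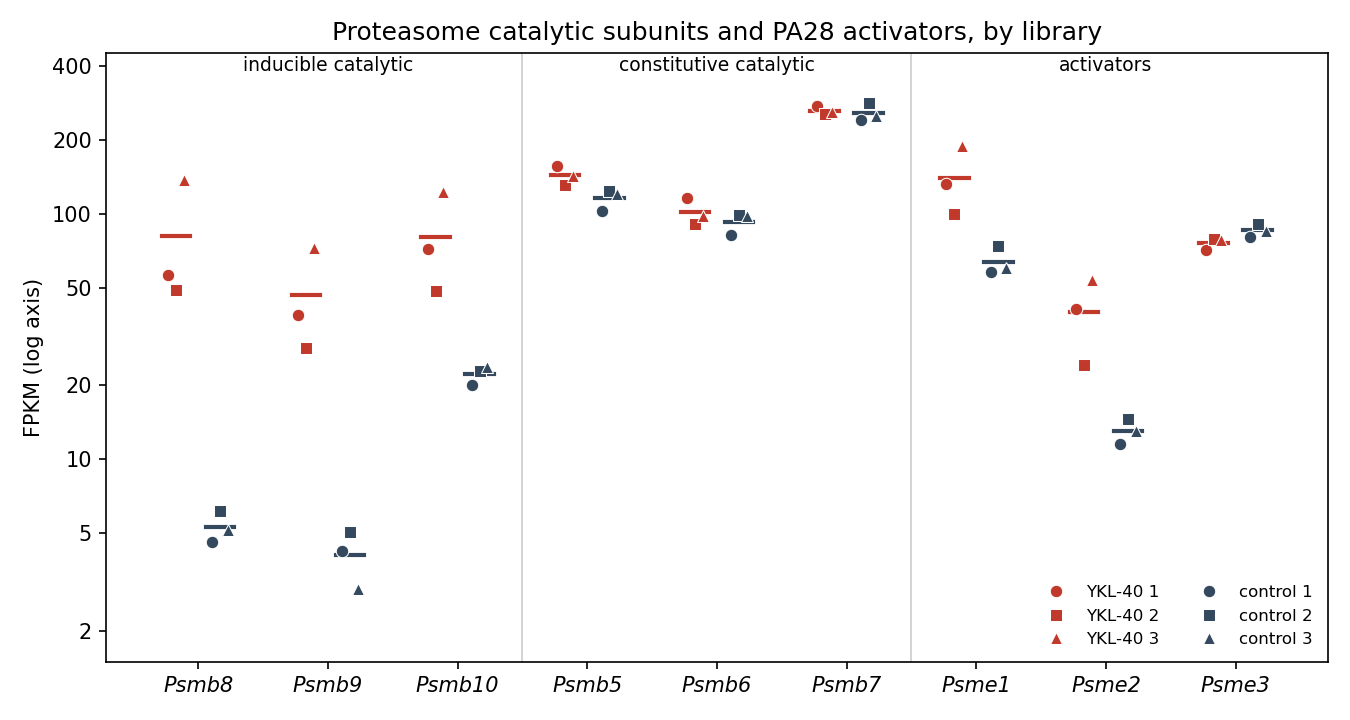
FPKM (log axis) of the 9 members in each library, with YKL-40 libraries left of controls for each gene and a bar at the group mean. Psmb8 lies between 49.1 and 137 FPKM in the YKL-40 libraries and between 4.59 and 6.14 FPKM in the controls, while the groups of Psmb6 and Psmb7 overlap.

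The constitutive partners changed far less than the inducible subunits. Psmb5, the partner of Psmb8, had 156, 131 and 143 FPKM in the YKL-40 libraries, against 102, 124 and 119.9 FPKM in the controls. All its YKL-40 values lay above the controls, but the change of 0.31 (SE 0.11) did not pass in limma (adjusted p = 0.221, unadjusted p = 0.0269). The 95% interval of this change, not adjusted for the number of genes, ran from 0.05 to 0.57. Psmb6, the partner of Psmb9, had 116, 91.0 and 97.6 FPKM in the YKL-40 libraries, against 81.9, 98.3 and 97.8 FPKM in the controls. Its groups overlapped, and the 95% interval of its change ran from -0.17 to 0.42. Psmb7, the partner of Psmb10 and the most abundant member, had 275, 253 and 258 FPKM in the YKL-40 libraries, against 239.8, 281 and 250.3 FPKM in the controls. The 95% interval of its change ran from -0.20 to 0.26, and its sign turned without control 1, without YKL-40 library 1, with array quality weights and with the muscle covariate. Together the constitutive subunits summed to 507 ± 36.7 FPKM in the YKL-40 libraries and 465 ± 39.9 FPKM in the controls (SD, n = 3 each), and the groups overlapped.

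The ratio of an inducible subunit to its partner within a library does not depend on how the library was scaled. Psmb8/Psmb5 was 0.360, 0.375 and 0.963 in the YKL-40 libraries, against 0.0450, 0.0496 and 0.0432 in the controls. In YKL-40 library 3 the RNA of Psmb8 thus nearly equalled that of Psmb5. Psmb8 made up 26.5% to 49.0% of the pair's summed FPKM in the YKL-40 libraries, against 4.14% to 4.72% in the controls. Psmb9/Psmb6 was 0.334, 0.313 and 0.741 in the YKL-40 libraries, against 0.0518, 0.0514 and 0.0305 in the controls. Control 3 had the lowest ratio of this pair. Psmb10/Psmb7 was 0.260, 0.192 and 0.472 in the YKL-40 libraries, against 0.0840, 0.0812 and 0.0946 in the controls.

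For each pair all YKL-40 ratios lay above all control ratios. The mean log2 ratios of the groups differed by 3.47 for Psmb8/Psmb5, 3.30 for Psmb9/Psmb6 and 1.73 for Psmb10/Psmb7, with a two-sided exact permutation p of 0.1 for each, which is the smallest that 3 against 3 libraries allow and is also 0.1 when adjusted over the 3 ratios. The spread of the log2 ratio was wider in the YKL-40 libraries (SD 0.80, 0.69 and 0.66 in the order of the pairs) than in the controls (SD 0.10, 0.44 and 0.12). Without YKL-40 library 3 the differences were 3.00, 2.90 and 1.37. Taken over all 6 catalytic genes, the inducible share of the summed FPKM was 23.3%, 21.0% and 39.9% in the YKL-40 libraries, against 6.40%, 6.33% and 6.37% in the controls.

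**Figure D2:**
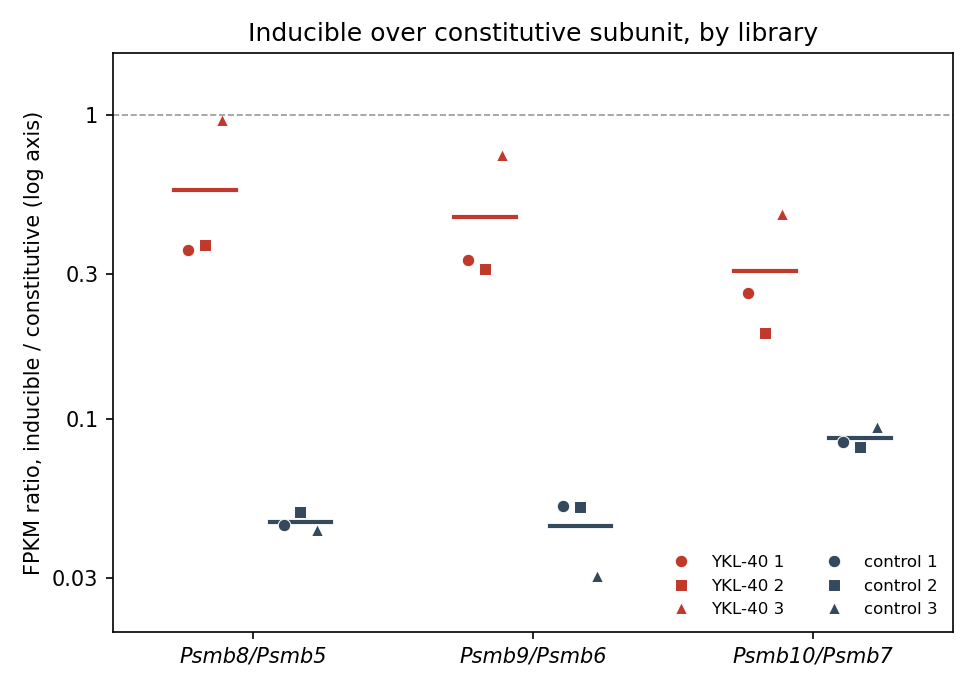
Ratio of FPKM of each inducible subunit to its constitutive partner (log axis) in each library, with YKL-40 libraries left of controls, a bar at the group mean and a dashed line where partners are equal. The YKL-40 libraries lie between 0.192 and 0.963, and the controls between 0.0305 and 0.0946.

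The balance among the inducible subunits also lay apart between the groups. Psmb10 over Psmb8 was 1.27, 0.989 and 0.888 in the YKL-40 libraries, against 4.38, 3.72 and 4.57 in the controls. In the YKL-40 libraries Psmb10 stood at about the level of Psmb8, while it was the leading inducible subunit in every control. Psmb8/Psmb5 divided by Psmb10/Psmb7 was 1.39, 1.95 and 2.04 in the YKL-40 libraries, against 0.535, 0.611 and 0.457 in the controls. The groups did not overlap (difference of 1.74 on the log2 scale, two-sided exact permutation p = 0.1, the smallest possible). The same quotient of Psmb8/Psmb5 and Psmb9/Psmb6 overlapped between the groups, at 1.08, 1.20 and 1.30 in the YKL-40 libraries and 0.869, 0.965 and 1.42 in the controls (two-sided exact permutation p = 0.5). These quotients were added after the values had been seen.

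Psmb8 and Psmb9 lie on either side of Tap1, the gene of a peptide transporter subunit, in the MHC region of chromosome 17. In the RefSeq annotation of GRCm38.p6, the assembly of mm10, Psmb9 spans 34182030 to 34187330, Tap1 spans 34187556 to 34197225 and Psmb8 spans 34198195 to 34201454. Psmb9 and Tap1 run away from each other, and the 225 bases between their starts are shown because both genes rose. Tap1 had 47.0, 40.1 and 80.8 FPKM in the YKL-40 libraries, against 11.8, 10.6 and 7.75 FPKM in the controls, a change of 2.32 (limma, adjusted p = 0.0303). Psmb10 (chromosome 8, 105935728 to 105938392) lies apart from them.

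Promoter windows of RefSeq, from 250 bases before to 50 bases after a start, were found for 8 of the 9 members, all but Psmb7. They were searched on both strands for the spaced repeat bound by STAT factors (GAS, TTCNNNGAA), for the core of the interferon-stimulated response element (ISRE, GAAANNGAAA) and for the antioxidant-response-type element (TGACNNNGC) bound by NRF factors, which are known to drive constitutive proteasome genes. Matches are in capitals, and 0 matches overlapped each other.
Psmb9 to Tap1, chr17:34187331-34187555, minus strand: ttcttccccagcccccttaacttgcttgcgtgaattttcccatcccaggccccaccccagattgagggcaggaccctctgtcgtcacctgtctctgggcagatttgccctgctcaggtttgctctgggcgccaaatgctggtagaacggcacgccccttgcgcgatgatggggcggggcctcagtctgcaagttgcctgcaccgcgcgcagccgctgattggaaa
Psmb8, chr17:34198075-34198194, plus strand: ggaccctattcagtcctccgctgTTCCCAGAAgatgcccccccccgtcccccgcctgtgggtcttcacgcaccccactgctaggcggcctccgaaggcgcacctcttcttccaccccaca
Psmb5, chr14:54617996-54618075, minus strand: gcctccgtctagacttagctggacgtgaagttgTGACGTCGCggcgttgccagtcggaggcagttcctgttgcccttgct
Psmb6, chr11:70525327-70525356, plus strand: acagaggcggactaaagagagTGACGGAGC
Psme1, chr14:55578494-55578523, plus strand: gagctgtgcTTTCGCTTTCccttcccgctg

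Among the members with a window, GAS was found before Psmb8 alone and the ISRE core in Psme1 alone, just after its start. GAS occurred in 8.30% and the ISRE core in 3.44% of all 32851 windows. TGACNNNGC was found in the constitutive pair members Psmb5 and Psmb6, and in 12.4% of all windows. It was found in 0 of the 9 other core subunits with a window and in 4 of 16 cap subunits. The ISRE core was also found in Psmb3 of the core and Psmd4 of the cap, and GAS in Psmd2 of the cap, genes that were not called. The stretch between Psmb9 and Tap1 held no match. A match is a description of the sequence and not a site shown to be bound.

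The PA28 subunits separated by type. Psme1 had 132, 99.3 and 188 FPKM in the YKL-40 libraries, against 57.9, 73.6 and 59.9 FPKM in the controls. Psme2 had 40.9, 24.2 and 53.9 FPKM in the YKL-40 libraries, against 11.6, 14.6 and 13.1 FPKM in the controls. The groups of both genes lay apart, with changes of 1.08 (SE 0.22, adjusted p = 0.0845) and 1.46 (SE 0.26, adjusted p = 0.0773) that did not pass in limma over all genes. Both passed without YKL-40 library 2, the lowest of its group for both, with an adjusted p of 0.0305 for Psme1 and 0.00948 for Psme2. They also passed with array quality weights (adjusted p = 0.0160 and 0.0118 in limma). Neither passed in limma when any other single library was left out. The adjusted p was then 0.108 to 0.220 for Psme1 and 0.0748 to 0.196 for Psme2. With the muscle covariate the changes were 0.43 and 0.77 (adjusted p = 0.864 and 0.842 in limma).

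Psme3 had 71.4, 79.0 and 78.1 FPKM in the YKL-40 libraries, against 80.3, 91.1 and 85.2 FPKM in the controls. Every YKL-40 value lay below every control, by a small amount (change -0.17, SE 0.09, adjusted p = 0.392 in limma). Psme1 over Psme3 was 1.85, 1.26 and 2.40 in the YKL-40 libraries, against 0.720, 0.808 and 0.703 in the controls. PA28α RNA thus exceeded that of PA28γ in each YKL-40 library and lay below it in each control (difference of 1.26 on the log2 scale, two-sided exact permutation p = 0.1, the smallest possible). Psme2 over Psme1 was 0.310, 0.244 and 0.287 in the YKL-40 libraries, against 0.200, 0.199 and 0.218 in the controls, so Psme2 was the lower of the pair in all libraries.

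Psme2 has a near copy, Psme2b, on chromosome 11, and how the authors' counting divided reads between them is unknown. Psme2b had 3.35, 2.79 and 5.85 FPKM in the YKL-40 libraries, against 1.13, 1.33 and 1.31 FPKM in the controls. With the copies summed, an alternative added after the values had been seen, the change of Psme2 was 1.48 (adjusted p = 0.0729). Psme1 overlaps the end of Emc9 on the annotation, and the library kit keeps no strand, but Emc9 had only 2.41 to 4.34 FPKM in the YKL-40 libraries and 2.91 to 3.46 FPKM in the controls.

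In the YKL-40 libraries the order of the members by mean FPKM was Psmb7, Psmb5, Psme1, Psmb6, Psmb8, Psmb10, Psme3, Psmb9 and Psme2, and among neighbours in that order only Psmb7 and Psmb5 had ranges that did not overlap. In the controls the order was Psmb7, Psmb5, Psmb6, Psme3, Psme1, Psmb10, Psme2, Psmb8 and Psmb9, and among neighbours only Psmb6 with Psme3 and Psmb8 with Psmb9 overlapped. The coefficient of variation among YKL-40 libraries was 60.6% for Psmb8, 49.4% for Psmb9, 46.5% for Psmb10, 32.0% for Psme1 and 37.6% for Psme2. It was 4.38% to 12.8% for Psmb5, Psmb6, Psmb7 and Psme3. For all 5 inducible members the YKL-40 libraries ran in the order 3, 1, 2 from the highest level.

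Outside the members, no tested proteasome gene passed in limma. Only 0.436% of all tested genes were called, so 0 calls in lists this short do not show that these genes were unchanged. At an unadjusted p under 0.05 in limma, 8.71% of all tested genes were higher and 9.24% lower. Of the 11 other subunits of the core, 0 passed in limma (2 at an unadjusted p under 0.05, both higher), with a median change of 0.10, against -0.04 over all tested genes. The lowest p belonged to the β-ring subunits Psmb4 and Psmb2 and to Psma2, a subunit of the α ring. Psmb4 had 251.5, 196 and 215 FPKM in the YKL-40 libraries, against 168, 185 and 172 FPKM in the controls (change 0.33, adjusted p = 0.207). Psmb2 had a change of 0.26 and Psma2 of 0.17.

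Of 19 subunits of the regulatory cap, which recognises and unfolds tagged proteins, 0 passed in limma (2 at an unadjusted p under 0.05, both higher), with a median change of 0.11. Their changes ran from -0.17 for Psmd14 to 0.28 for Psmd8, and Psmd4, a ubiquitin receptor, had 0.27 (adjusted p = 0.202) and Psmd2 0.18. All YKL-40 values lay above all controls for 7 of the 19, where this held for 10.3% of all tested genes.

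Of 15 tested assembly factors, other activators and regulators, 0 passed in limma, with 1 higher and 1 lower at an unadjusted p under 0.05 and a median change of -0.04. The lower was Psme4, the gene of the activator PA200. It had 115, 130.3 and 127 FPKM in the YKL-40 libraries, against 157, 164 and 166 FPKM in the controls, and the groups did not overlap (change -0.39, SE 0.09, adjusted p = 0.0966). The higher was Psmg4, an assembly chaperone (change 0.32, adjusted p = 0.247). Ngly1, a deglycosylase that processes NRF1, had a change of -0.15, and Pomp, the chaperone of core assembly, had 27.0, 18.1 and 24.7 FPKM in the YKL-40 libraries and 19.7, 21.2 and 19.6 FPKM in the controls.

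**Figure D3:**
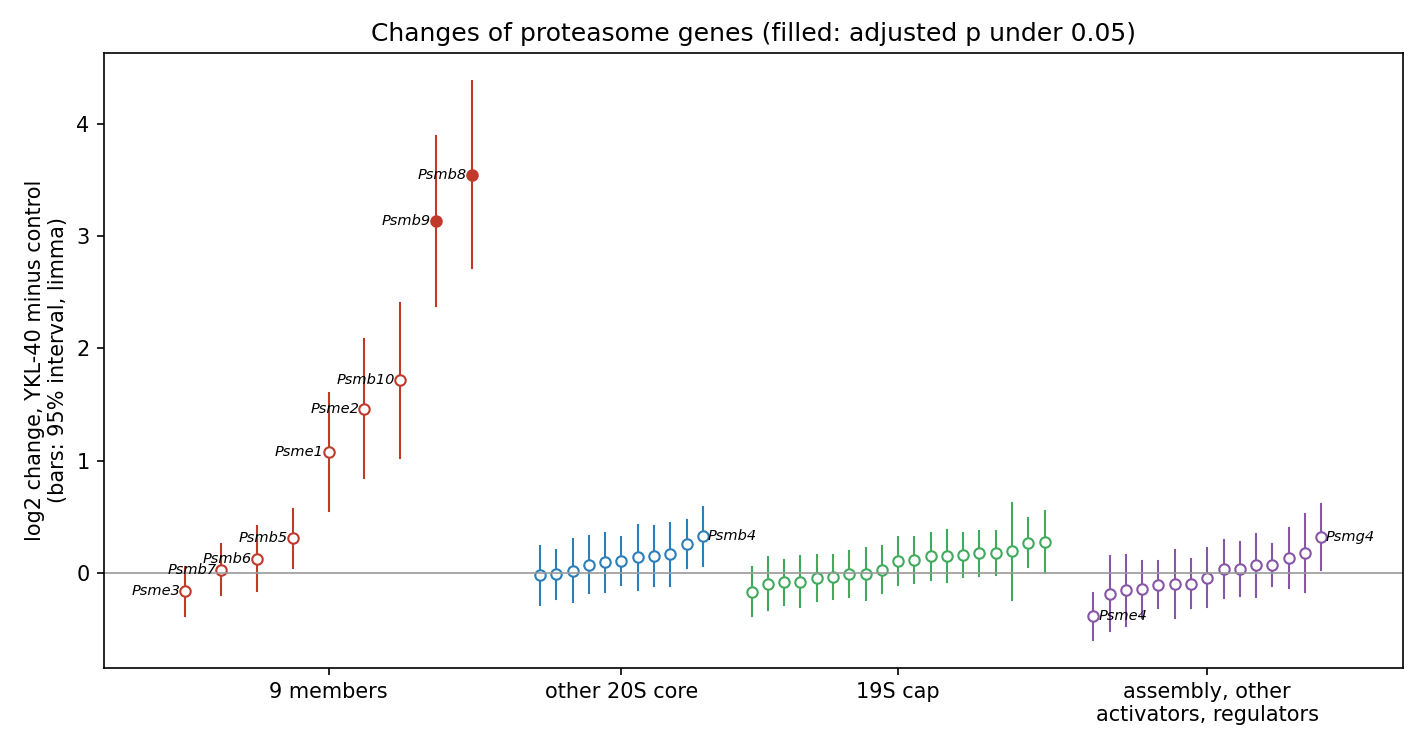
Change on the log2(FPKM + 1) scale, YKL-40 minus control, of each tested proteasome gene, with bars for the 95% interval in limma and filled points for an adjusted p under 0.05. The members run from -0.17 for Psme3 to 3.55 for Psmb8, whereas the 19 cap subunits lie between -0.17 and 0.28.

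Genes that act downstream of the proteasome in the class I pathway, and regulators of interferon response, were taken as a list of 24, of which 23 were tested. At an unadjusted p under 0.05 in limma, 13 were higher (8.71% of all tested genes) and 0 lower (9.24%), and the median change was 1.10. After adjustment 6 rose (0.365% of all tested genes) and 0 fell (0.0712%). Those that rose were the class I heavy chains H2-K1 (2.40) and H2-D1 (1.78), the transporter subunits Tap1 (2.32) and Tap2 (2.06), the loading factor Tapbp (1.64) and Irf1 (2.03), a transcription factor of interferon-γ response. H2-K1 and H2-D1 are close in sequence, so the division of reads between them is uncertain. Not every gene of the list rose. All YKL-40 values lay above all controls for 13 of the 23, against 10.3% of all tested genes. The groups overlapped for 9 of the 23, against 8494 of all 11241 tested genes. Among these 9 were Calr, Pdia3, Jak1, Jak2, Ifngr1 and Ifngr2. For Canx every YKL-40 value lay below every control (change -0.21), as for 14.2% of all tested genes. Irf1 had 40.5, 30.3 and 73.5 FPKM in the YKL-40 libraries, against 9.01, 11.7 and 10.2 FPKM in the controls, and its YKL-40 libraries stood in the same order as those of Psmb8, Psmb9 and Psmb10 (adjusted p = 0.0472). The count of 6 was 0 without control 1, without control 2 or without YKL-40 library 1. Ifng itself lay below the filter, at 0.250, 0.235 and 0.695 FPKM in the YKL-40 libraries, against 0, 0.0215 and 0 FPKM in the controls.

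The genes with the most similar profile were sought among tested genes outside the members. Genes with clone or model names, such as those ending in Rik, were left out. Likeness was the smallest root mean square distance between log2(FPKM + 1) values centred over the 6 libraries. Nearest to Psmb8 were Gbp4 (distance 0.18), Igtp (0.29), Cd74 (0.33) and Iigp1 (0.34). Nearest to Psmb9 were Ifi47 (0.21), Apol9b (0.28), Igtp (0.28) and Iigp1 (0.34). Nearest to Psmb10 were Slamf8 (0.07), Il12rb1 (0.11), Sp100 (0.12) and Sp110 (0.14). Slamf8 had 2.60, 1.63 and 4.78 FPKM in the YKL-40 libraries, against 0.0787, 0.310 and 0.220 FPKM in the controls, and Sp110 had 3.78, 2.82 and 8.29 FPKM in the YKL-40 libraries, against 0.880, 0.640 and 0.983 FPKM in the controls. At such levels the added 1 shrinks the change on the log2 scale, so their short distance to Psmb10 does not mean an equal fold, and both genes reached the filter only through the YKL-40 libraries. Gbp4 had 15.1, 12.5 and 53.2 FPKM in the YKL-40 libraries, against 0.866, 1.11 and 0.982 FPKM in the controls. Its controls averaged below the filter, and the added 1 shrinks its change as well. Its short distance to Psmb8 thus does not mean an equal fold either. All these libraries share the group difference, so the distance describes likeness over these 6 values and no more.

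Markers of cell types that carry the inducible subunits moved with the same groups. In whole tumours, fewer cells of a type and less RNA per cell cannot be told apart. The summed level of 7 leukocyte markers was 100.2, 69.5 and 109 FPKM in the YKL-40 libraries, against 28.6, 29.9 and 47.5 FPKM in the controls. For 6 of the 7 all YKL-40 values lay above all controls, as for 10.3% of all tested genes. In limma 0 of the 7 were called, where 0.436% of all tested genes were. For 11 T and NK cell markers the sum was 27.6, 10.3 and 37.1 FPKM in the YKL-40 libraries, against 0.713, 1.57 and 1.92 FPKM in the controls, with the groups of all 11 apart. Only 4 of the 11 passed the filter on low values. All 4 passed only through the YKL-40 libraries, as their control means were 0.0524 to 0.182 FPKM. Of these 4, Gzmb and Prf1 were called higher in limma, where 0.365% of all tested genes were. Markers that passed the filter in this way give no separate support. In the YKL-40 libraries both the leukocyte sum and the T and NK sum ran in the order 3, 1, 2 from the highest, as the inducible members did. The fibroblast sum had this order too (404, 333 and 221 FPKM in YKL-40 libraries 3, 1 and 2). The macrophage sum ran 3, 2, 1 and the dendritic cell sum 1, 3, 2, so the order was neither shared by all immune lists nor limited to them. Among the controls, library 3 had the highest of both sums and the highest Psmb10 (23.7 FPKM), while Psmb8 was highest in control 2 (6.14 FPKM), as was Psmb9 (5.05 FPKM). The part of these cells in the changes of the members was not tested.

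Among the other lists, 8 macrophage markers summed to 183 to 296 FPKM in the YKL-40 libraries and 51.3 to 147 FPKM in the controls, led by C1qa and C1qb, and 5 of the 8 had all YKL-40 values above all controls. Of all tested genes, 10.3% had all YKL-40 values above and 14.2% below all controls. No tested marker of these other lists was called in limma, where 0.436% of all tested genes were. The 8 dendritic cell markers, led by Irf8 and Ccr7, summed to 16.9 to 35.8 FPKM in the YKL-40 libraries and 5.01 to 11.1 FPKM in the controls (7 of 8 apart, 4 of 8 past the filter on low values). The 7 fibroblast markers, led by Col3a1 and Col1a1, summed to 221 to 404 FPKM in the YKL-40 libraries and 30.4 to 243 FPKM in the controls (3 of 7 apart). Sums of 5 endothelial markers, led by Pecam1 and Kdr, overlapped at 37.7 to 64.2 FPKM in the YKL-40 libraries and 32.4 to 70.7 FPKM in the controls (1 of 5 apart). The 10 skeletal muscle markers, led by Tnnt3 and Mylpf, summed to 3.45 to 25.3 FPKM in the YKL-40 libraries and 38.3 to 166 FPKM in the controls (8 of 10 lower and apart). The 7 melanocyte markers, led by Pmel and Dct, summed to 8577 to 10681 FPKM in the YKL-40 libraries and 8569.8 to 10027 FPKM in the controls (1 of 7 apart). The 4 B cell markers, led by Cd79a and Cd79b, summed to 0.849 to 1.51 FPKM in the YKL-40 libraries and 0.729 to 1.51 FPKM in the controls, and of the 4 keratinocyte markers, led by Krt10 and Krt5, 2 were at 0 in all libraries. The part of muscle and stroma in the members' changes was not tested. The muscle sums did not overlap between the groups, so the covariate fit given above cannot separate muscle level from group.

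**Figure D4:**
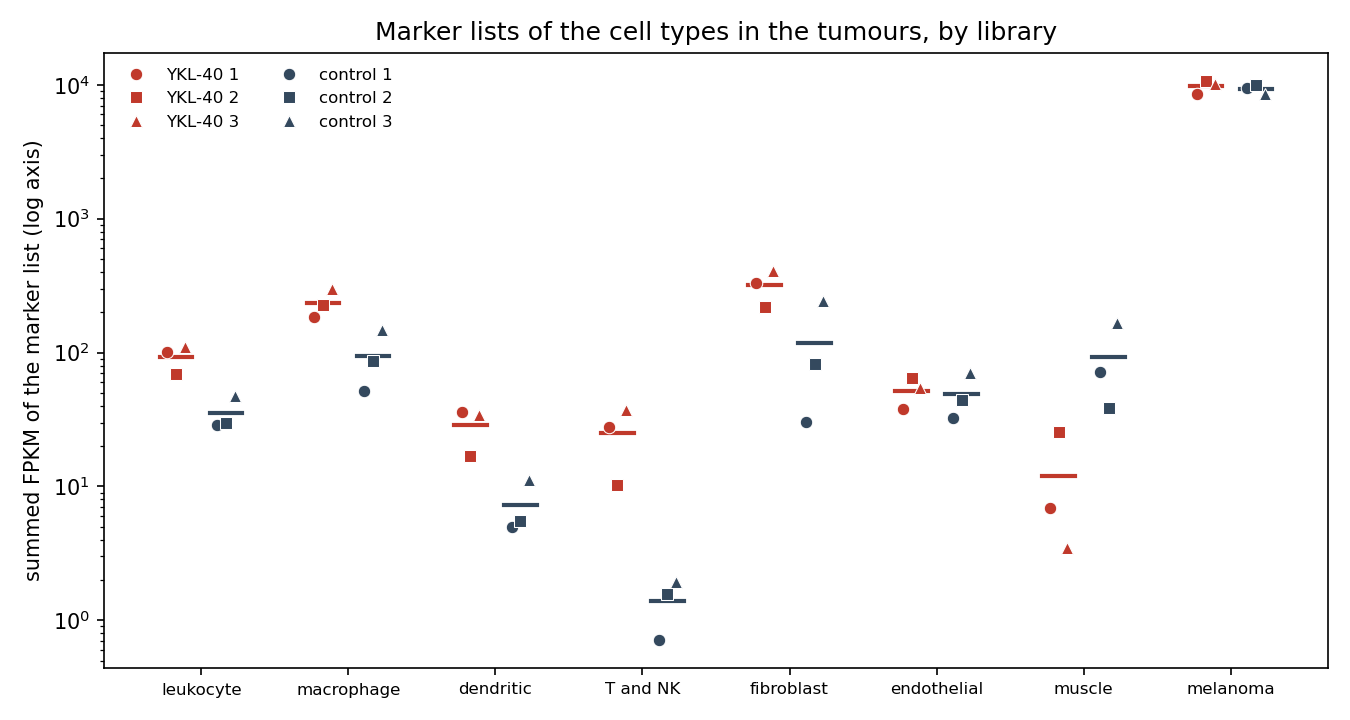
Summed FPKM (log axis) of 8 marker lists in each library, with YKL-40 libraries left of controls and a bar at the group mean. The T and NK list lies between 10.3 and 37.1 FPKM in the YKL-40 libraries and between 0.713 and 1.92 FPKM in the controls, while the melanocyte list overlaps.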

How the data were processed

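The authors deposited FPKM values, 1 per gene and library, per the file's name and values. Tools listed in the submitters' processing notes, without their roles, are StringTie, HISAT2, limma, DESeq2 and bcl2fastq 2.0, with build mm10. The annotation and the way transcripts became genes are not given in the sources used here. Libraries came from the TruSeq RNA v2 kit with 2 µg of RNA, per the labels' protocols.

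Values were used as log2(FPKM + 1) for genes averaging 1 FPKM or more, and tested across all 11241 genes with limma 3.58.1 in R 4.3.3 (variance trend, two-sided, Benjamini-Hochberg, threshold 0.05). The procedure was tested on simulated data with independent libraries and, for each gene, the same spread in both groups. The simulation thus does not cover the unequal spread seen for the inducible members. Ratios were taken on FPKM without a pseudocount and compared by exact permutation over libraries (scipy 1.17.1). Groups came from the titles, and all 6 libraries were used. Coordinates and promoter windows are from RefSeq, GRCm38.p6.

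The members and gene lists were chosen with earlier results of these data known, so their direction is no independent evidence. Named genes were all members, the 3 of lowest p and every called gene of each pathway list, the 4 nearest profiles, the 2 most abundant markers of each list, and genes adjoining members. Others, such as Ifng, Emc9, Pomp, Psmd14 and Psme2b, were chosen after their values were seen.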

Additional observations from a re-analysis of the deposited data

How the results depend on the processing

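Psmb8 and Psmb9 kept their direction in every alternative run, and so did the differences of the 3 ratios, which ranged over single left-out libraries from 3.00 to 3.71 for Psmb8/Psmb5, from 2.90 to 3.52 for Psmb9/Psmb6 and from 1.37 to 2.02 for Psmb10/Psmb7. With the other core subunits as denominator they were 3.66, 3.31 and 1.64. Of 11241 genes, 49 were called, and 1 without a filter, 1111 with array quality weights, 120 with the replicate block and 0 with the muscle covariate (573 at an unadjusted p under 0.05 in limma), and from 0 to 238 without single libraries. Of the members, 2 were called, and 0 without a filter (6 at an unadjusted p under 0.05 in limma), 5 with array quality weights and 0 with the muscle covariate (2 at an unadjusted p under 0.05), and from 0 to 5 without single libraries. Of the class I and regulator list, 6 were called, and 0 without a filter (14 at an unadjusted p under 0.05 in limma), 13 with array quality weights and 0 with the muscle covariate (6 at an unadjusted p under 0.05), and from 0 to 7 without single libraries. Of the assembly list, limma called 0 (2 had an unadjusted p under 0.05), and 1 with array quality weights. The cause of these shifts was not tested. Same-numbered libraries of the groups deviated together with correlations of -0.0832, -0.185 and 0.0017, and 0 of 3 correlated best with their own number. These values show no pairing by number, but with 3 libraries per group they cannot exclude one. With the replicate number as a block, 3 members were called, Psmb10 being added (adjusted p = 0.0469), and the ratios differed by the same 3.47, 3.30 and 1.73 (exact sign-flip p = 0.25, the smallest possible). Psmb7 had a change of -0.05 to 0.10 under the alternatives other than the muscle covariate, and of -0.11 with it, and was never called. Read depth is unknown, so counting error could not be set beside the spread.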

Other observations

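The tissue-restricted catalytic and core subunits were near 0. Psmb11, the thymus-specific β5t subunit, had 0.602, 0.216 and 0.122 FPKM in the YKL-40 libraries, against 0, 0.123 and 0.0262 FPKM in the controls, and the groups overlapped. Psma8, known from testis, was at 0, 0 and 0.212 FPKM in the YKL-40 libraries and at 0, 0.0359 and 0.207 FPKM in the controls.

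Apart from Tap1, the tested genes within 1000 bases of a member did not pass in limma. Rnf31, beside Psme2, had 14.2, 15.5 and 16.2 FPKM in the YKL-40 libraries, against 11.4, 12.7 and 11.7 FPKM in the controls (change 0.33, adjusted p = 0.150), and Aoc2, beside Psme3, and Nek6, beside Psmb7, had changes of -0.21 and 0.05. Emc9, whose end overlaps that of Psme1, had a change of -0.02.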
